A study of Mus musculus with 12 samples.

Results

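The unfolded protein response and the integrated stress response were followed in gonadal white adipose tissue through 10 genes: Hspa5, Ddit3, Atf4, Xbp1, Trib3, Asns, Chac1, Herpud1, Dnajb9 and Sdf2l1. They were taken by gene symbol from the count table, which lists 32238 genes, and all 10 were found and were among the 20297 genes with enough counts to test. The mice were wild type (WT) or had lost Bnip3, a mitophagy receptor of the outer mitochondrial membrane, in macrophages (MKO). Both genotypes were put on a normal chow diet (NCD) or a high-fat diet (HFD) for 12 weeks from the age of 8 weeks, which gives 4 groups of 3 biological replicates. The promoter that drives the deletion, the strain and the sex are not given in the sources used here.

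The endoplasmic reticulum (ER) folds secreted and membrane proteins, and unfolded protein there is sensed by IRE1, PERK and ATF6. IRE1 splices Xbp1 mRNA, PERK phosphorylates the translation factor eIF2alpha and so favours translation of Atf4 mRNA, and ATF6 is cleaved to a transcription factor. Other eIF2alpha kinases, which respond to amino acid shortage, heme shortage or double-stranded RNA, feed into the same ATF4 branch, known as the integrated stress response. In obesity, ER stress in fat has been studied in connection with inflammation and insulin resistance. Splicing of Xbp1 and translation of Atf4 are not seen in counts per gene, so the values here are total mRNA levels.

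The promoters of Hspa5, Herpud1 and Asns are shown because each holds a known element of these branches. The ER stress response element (ERSE) is CCAAT, 9 bases and CCACG, bound by ATF6 with NF-Y. ERSE-II is ATTGGNCCACG. The CARE element, bound by ATF4 with a C/EBP partner, was searched as TGATGNAAT or TGATGNAAC, and the core of the UPRE element, bound by XBP1, as TGACGTGG. Both strands were searched in RefSeq windows of build GRCm38.p6 that run from 250 bases before to 50 bases after a start site. The 250 bases before the start site are printed 5′ to 3′ on the gene's strand, with the matched elements in capitals, for Hspa5 (chr2:34771840-34772089, plus strand), Herpud1 (chr8:94386179-94386428, plus strand) and Asns (chr6:7693210-7693459, minus strand).
Hspa5: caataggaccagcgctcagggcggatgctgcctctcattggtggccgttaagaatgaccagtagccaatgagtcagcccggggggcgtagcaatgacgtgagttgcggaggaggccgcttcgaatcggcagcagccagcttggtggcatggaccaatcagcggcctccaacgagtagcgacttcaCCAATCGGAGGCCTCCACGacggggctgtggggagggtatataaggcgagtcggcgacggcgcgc
Herpud1: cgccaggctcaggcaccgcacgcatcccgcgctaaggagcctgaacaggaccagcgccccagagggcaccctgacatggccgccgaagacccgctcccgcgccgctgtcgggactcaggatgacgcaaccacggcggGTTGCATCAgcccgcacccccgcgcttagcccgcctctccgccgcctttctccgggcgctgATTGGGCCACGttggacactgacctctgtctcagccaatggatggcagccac
Asns: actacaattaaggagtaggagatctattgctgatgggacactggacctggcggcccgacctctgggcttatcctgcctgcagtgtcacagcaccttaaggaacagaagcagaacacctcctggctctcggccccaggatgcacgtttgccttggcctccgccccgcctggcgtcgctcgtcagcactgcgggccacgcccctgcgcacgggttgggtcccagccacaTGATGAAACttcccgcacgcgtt

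In Hspa5 the capitals mark 1 ERSE, from 65 to 47 bases before the start site. ERSE is found in 39 of 32851 windows of all genes (0.119%). The first capitals in Herpud1 are a CARE element read on the opposite strand, 113 to 105 bases before the start, and the second are an ERSE-II, 52 to 42 bases before it. ERSE-II is found in 12 windows (0.0365%). Asns carries a CARE element 23 to 15 bases before its start. Among the other 7 genes, Chac1 has a CARE element on the opposite strand, 194 to 186 bases before its start, with the same letters as in Herpud1. CARE letters occur in 580 windows (1.77%), and the UPRE core, found in 222 windows (0.676%), was in the window of none of the 10 genes. A match describes the letters only and shows no binding.

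Library totals were 52.9 to 72.7 M counts. Levels are given as CPM, a gene's counts scaled to its library's normalized total, in the order of replicates 1, 2 and 3. Adipocyte markers were abundant in every library, with Adipoq at 1230 CPM or more and Fabp4 at 6486 CPM or more. Bnip3 ranged from 392 to 568 CPM in WT NCD, from 547 to 811 CPM in MKO NCD, from 358 to 418 CPM in WT HFD and from 415 to 476 CPM in MKO HFD, so a deletion confined to macrophages is not seen in these whole-tissue counts and the genotype labels are not checked by them. The WT NCD libraries held epididymis transcripts, with 9 of 10 listed markers in the table and a summed level of 6354 to 7610 CPM, against 20.5 CPM or less in each of the other 9 libraries. The summed level of 10 macrophage markers was 421 to 1131 CPM in WT NCD, 566 to 796 CPM in MKO NCD, 3290 to 5132 CPM in WT HFD and 520 to 1347 CPM in MKO HFD. MKO NCD replicate 2 listed 57.3% of all genes at 0, against 15.6 to 38.3% in the others, and 702 genes at 0 that had at least 100 counts in each other library. Of 113 stress genes examined, 3 were among these: Sdf2l1, Atf3 and Pdia5. The part of these differences in the results below was not tested, and in whole tissue fewer cells of a type cannot be told apart from less RNA per cell.

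**Figure D1:**
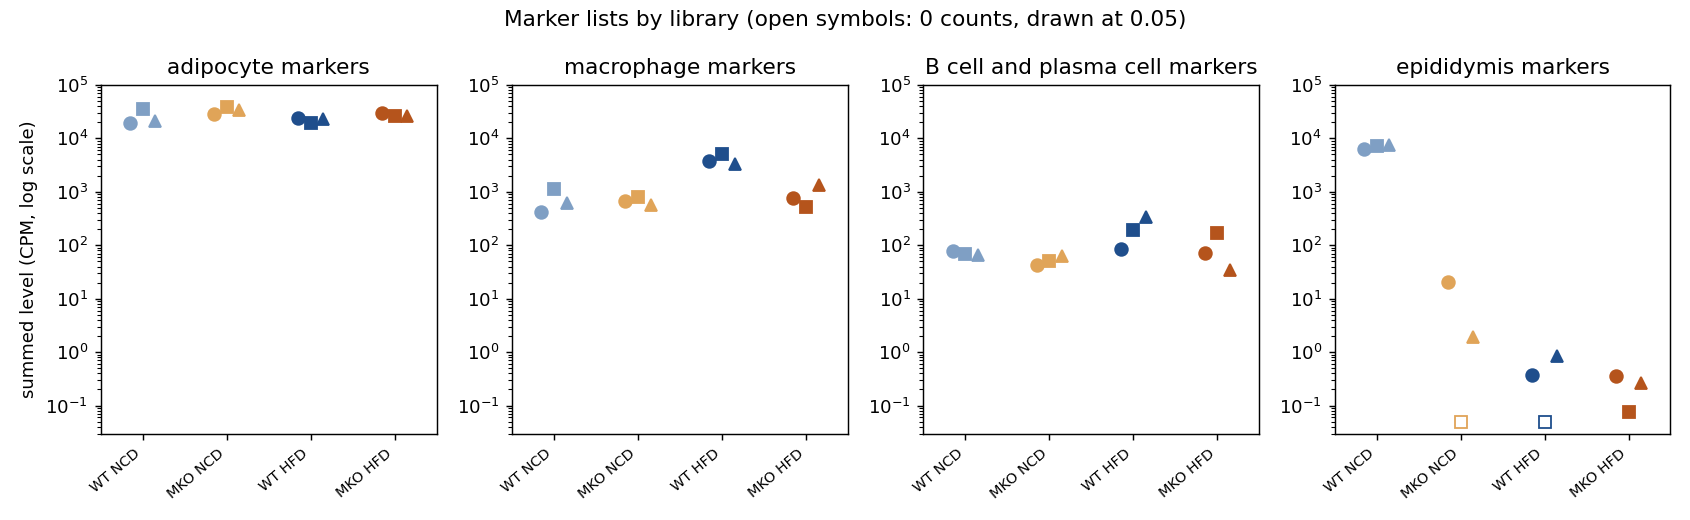
Summed level of 4 marker lists in each library, in CPM on a log scale. Symbols are replicates 1 to 3 and open symbols are sums of 0 drawn at the bottom. Epididymis markers are high in WT NCD, at 6354 CPM or more, and macrophage markers are high in WT HFD, at 3290 CPM or more.

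Compared per transcript length, in TPM (transcript abundance scaled for length and depth) as the authors deposited it, Hspa5 was the most abundant of the 10 genes with a mean level of 495 TPM over the 12 libraries. Xbp1 followed at 206 TPM and Atf4 at 139 TPM. Herpud1, Asns, Dnajb9 and Ddit3 lay between 61.7 and 42.8 TPM, Sdf2l1 at 19.0 TPM, and Trib3 and Chac1 at 7.10 and 6.23 TPM. The neighbours Herpud1 and Asns, and Trib3 and Chac1, differed by less than their spread between libraries.

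In WT fat 4 of the 10 genes differed between HFD and NCD, in both directions: Ddit3 was higher on HFD, and Herpud1, Asns and Xbp1 were lower. The chaperone Hspa5 and its partners did not pass the test in edgeR. A gene was called at an adjusted p under 0.05 (quasi-likelihood test of edgeR, Benjamini-Hochberg, all 20297 genes tested), here and throughout. In this comparison 9.5% of all tested genes were called higher and 8.28% lower, beside 1 and 3 of the 10. At an unadjusted p under 0.05 there were 6 of the 10 genes and 31.5% of all genes. DESeq2, limma-voom with sample weights and the fit of only the compared libraries each called 6 of the 10, adding rises of Trib3 and Dnajb9. Of all genes DESeq2 called 26.8%, limma-voom 30.8% and the fit of only the compared libraries 27.2%. The median log2 fold change was 0.18 over the 10 genes and -0.09 over all tested genes. In the same comparison 10 of 10 macrophage markers and 6 of 8 fibroblast markers were called higher, and 1 of 10 adipocyte markers was called higher and 4 lower. Of 7 tested epididymis markers 6 were called lower. The summed fibroblast level was 1646 to 3191 CPM in WT NCD and 5262 to 7247 CPM in WT HFD, and the summed adipocyte level 19174 to 35436 and 19094 to 24319 CPM. The part of these tissue differences, the epididymis transcripts of WT NCD among them, in the changes of the 10 genes was not tested.

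Ddit3 (chr10:127290793-127296291) encodes CHOP, a transcription factor of the ATF4 branch that is linked to cell death. In WT its level was 18.0, 16.1 and 17.5 CPM on NCD and rose to 25.8, 26.7 and 23.9 CPM on HFD. Every WT HFD library was above every WT NCD library. The rise was 1.48-fold, a log2 fold change of 0.57 (SE 0.12, edgeR adjusted p = 0.00944). In MKO the level was 22.4, 18.4 and 23.1 CPM on NCD and 27.7, 30.0 and 27.7 CPM on HFD, again without overlap. That difference was 0.42 on the log2 scale (SE 0.12) and did not pass the test (adjusted p = 0.117). The interaction, the difference between the diet effects in MKO and WT, was -0.15 for Ddit3 (nominal 95% interval -0.49 to 0.19). Ddit3 shares 77 bases with Mbd6 and 71 bases with Mars1 on the opposite strand, and whether counting used the strand is not given in the sources used here. Without WT HFD replicate 1 the adjusted p of the rise in WT was 0.0524.

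Herpud1 (chr8:94386429-94395371), whose promoter carries both ERSE-II and CARE letters, encodes an ER membrane protein that helps to hand misfolded proteins to degradation. In WT it was at 86.3, 71.8 and 66.6 CPM on NCD, but at 45.0, 43.6 and 42.9 CPM on HFD. The groups were far apart and the HFD libraries lay within a narrow range. The level was 1.71-fold lower on HFD, a log2 fold change of -0.77 (SE 0.14, adjusted p = 0.00298), and this call held in each of 18 alternative analyses. MKO fat had 53.7, 70.0 and 62.3 CPM on NCD and 50.9, 47.0 and 59.2 CPM on HFD. These ranges overlapped, and the log2 fold change in MKO was -0.24 (SE 0.13, adjusted p = 0.384). The interaction of 0.53 (SE 0.19) did not pass the test (adjusted p = 0.245), so the fall was not shown to differ between genotypes.

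Asns (chr6:7675165-7693209) encodes asparagine synthetase, a classic target of ATF4, and its promoter printed above carries CARE letters. WT NCD libraries had 47.3, 76.1 and 59.3 CPM, whereas WT HFD libraries had 39.2, 29.2 and 33.9 CPM, with all HFD libraries below all NCD libraries. The level was 1.78-fold lower on HFD, a log2 fold change of -0.84 (SE 0.19, adjusted p = 0.0136). In MKO it was 75.2, 99.7 and 81.9 CPM on NCD and 54.3, 60.4 and 43.7 CPM on HFD, also without overlap. That difference of -0.70 (SE 0.19) did not pass the test (adjusted p = 0.103). Without WT HFD replicate 2 the adjusted p in WT was 0.0674, and the call was also lost without WT NCD replicate 2.

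Xbp1 (chr11:5520641-5525993) encodes the transcription factor of the IRE1 branch, which secretory cells need. WT NCD libraries had 248, 267 and 229 CPM and WT HFD libraries 171, 166 and 176 CPM, without overlap. The level was 1.45-fold lower on HFD, a log2 fold change of -0.54 (SE 0.15, adjusted p = 0.0270). The call was lost without WT NCD replicate 1, WT NCD replicate 2 or any 1 of the WT HFD replicates, with the highest adjusted p, 0.0991, without WT HFD replicate 2. In MKO the level was 223, 351 and 266 CPM on NCD and 202, 211 and 193 CPM on HFD. The MKO HFD libraries were all lower, and the log2 fold change was -0.47 (SE 0.15, adjusted p = 0.137). Total Xbp1 counts do not separate the spliced from the unspliced form.

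**Figure D2:**
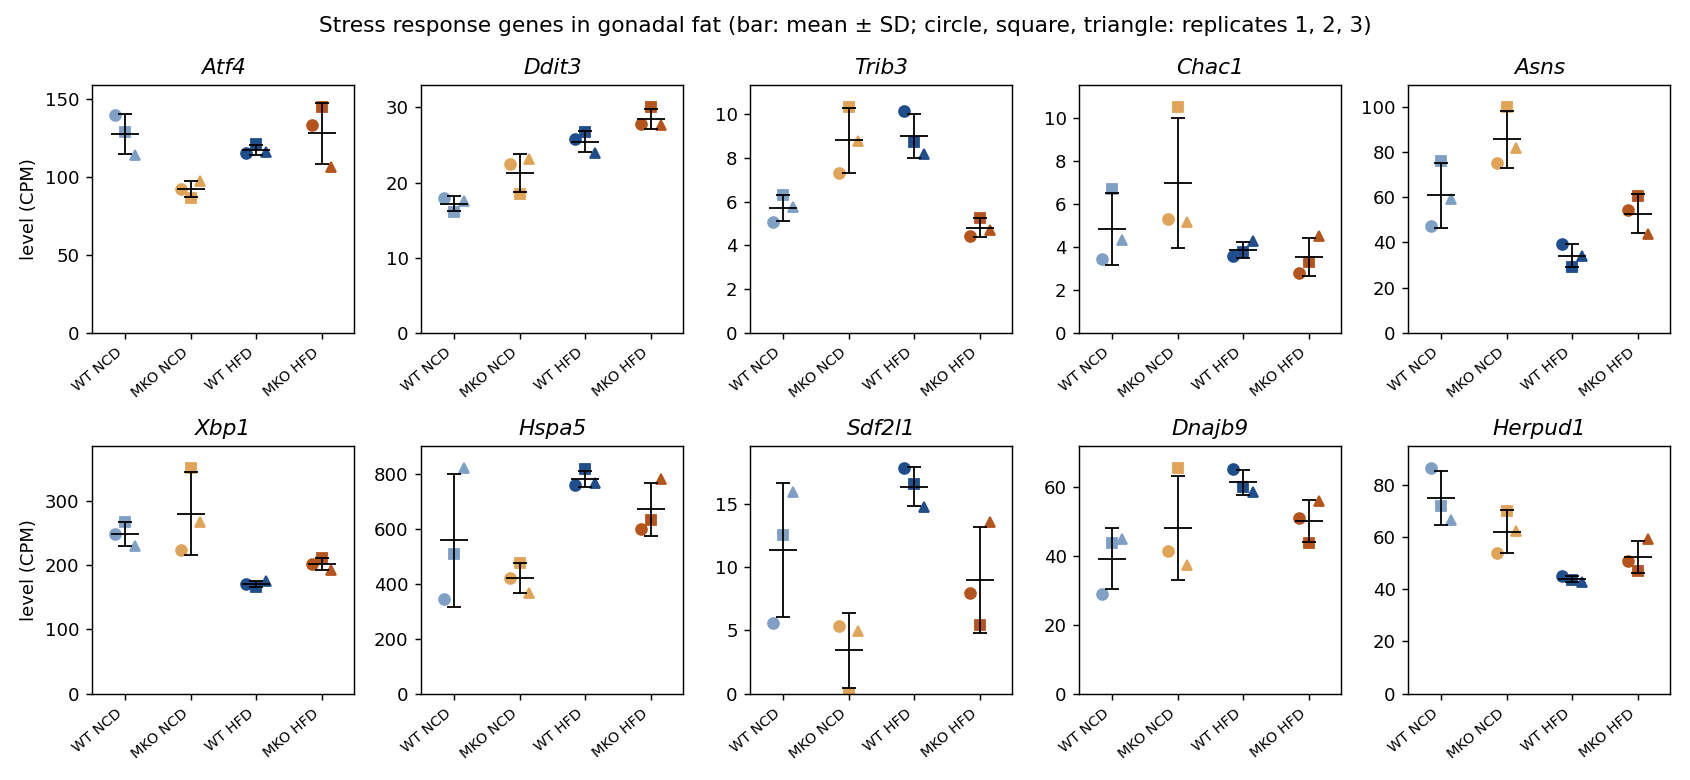
Level of each of the 10 genes in each library, in CPM on linear axes that start at 0. Symbols are replicates 1 to 3, and black bars are the mean and SD of each group (n = 3). Herpud1 is lowest in WT HFD, at 42.9 to 45.0 CPM, Trib3 is high in MKO NCD and WT HFD, and Sdf2l1 is at 0 in MKO NCD replicate 2.

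Hspa5 and its ER partners Dnajb9 and Sdf2l1 had higher means on HFD in both genotypes, but none passed the test in edgeR. The spread among NCD libraries was wide. Hspa5 (chr2:34772090-34776529), the gene of the main ER chaperone BiP, was at 346, 508 and 822 CPM in the WT NCD libraries, against 761, 818 and 769 CPM for WT HFD. WT NCD replicate 3 was above every WT HFD library, so the groups overlapped. The log2 fold change was 0.49 (SE 0.25, nominal 95% interval -0.01 to 0.98) and did not pass the test (adjusted p = 0.222). Without WT NCD replicate 3 it was 0.86 and passed (adjusted p = 0.0149). In MKO, Hspa5 was at 420, 478 and 366 CPM on NCD and at 602, 632 and 784 CPM on HFD, without overlap. The log2 fold change in MKO was 0.67 (SE 0.25, adjusted p = 0.217). It passed in 1 of 18 alternatives, limma-voom with sample weights (0.71, adjusted p = 0.0323). Hspa5 overlaps 1921 bases of Rabepk on the opposite strand.

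Dnajb9 (chr12:44205897-44210068) encodes ERdj4, a BiP cochaperone that is a target of XBP1. WT NCD libraries had 29.0, 43.9 and 44.8 CPM and WT HFD libraries 65.5, 60.1 and 58.7 CPM, without overlap. The log2 fold change of 0.65 (SE 0.22) did not pass the test (adjusted p = 0.0678). It passed in 4 of 18 alternatives, which were DESeq2 (adjusted p = 0.0460), limma-voom (0.0103), the fit of only the compared libraries (0.04997) and the fit without MKO NCD replicate 2 (0.0142). In MKO it was at 41.6, 65.6 and 37.4 CPM on NCD and 51.1, 43.8 and 56.0 CPM on HFD, and these ranges overlapped (log2 fold change 0.06, SE 0.22).

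Sdf2l1 (chr16:17130138-17132383) encodes a partner of ER chaperone complexes. WT libraries had 5.56, 12.5 and 15.9 CPM on NCD, and 17.8, 16.5 and 14.7 CPM on HFD. MKO NCD had 5.35, 0 and 4.92 CPM, and MKO HFD 7.94, 5.43 and 13.6 CPM. The 0 of MKO NCD replicate 2 allows a level of up to 0.0482 CPM (3 counts), by counting error only. Sdf2l1 is 1 of the 702 genes at 0 there that had at least 100 counts in each other library. Whether this 0 is a measured level was not tested, and the limit does not cover it. With SEs above 1 for the single diet and genotype comparisons, no change of Sdf2l1 passed. The MKO to WT difference on NCD was -1.73 (SE 1.12), and -1.14 without MKO NCD replicate 2 (adjusted p = 0.185).

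The remaining genes belong to the ATF4 branch. Trib3 (chr2:152337425-152344060), a pseudokinase that ATF4 and CHOP induce and that damps their action, was at 5.10, 6.29 and 5.76 CPM in the WT NCD libraries, against 10.2, 8.74 and 8.20 CPM for WT HFD. MKO fat showed the opposite order, with 7.34, 10.3 and 8.78 CPM on NCD and 4.45, 5.28 and 4.71 CPM on HFD. In neither genotype did the diets overlap. The log2 fold change was 0.66 in WT (SE 0.24, adjusted p = 0.0891) and -0.87 in MKO (SE 0.24, adjusted p = 0.104), and neither passed in edgeR. Both passed in DESeq2 (adjusted p = 0.00837 in WT and 3.86e-04 in MKO) and in limma-voom (0.0228 and 0.0413). The difference in WT also passed without MKO NCD replicate 2 (adjusted p = 0.0141) and in the fit of only the compared libraries (0.0491).

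The Trib3 interaction was -1.53 (SE 0.35, unadjusted p = 0.00100), the interaction with the smallest p among the 10 genes, and its adjusted p was 0.0733. Without MKO NCD replicate 2 it was -1.40 and passed (adjusted p = 0.0400). It also passed in DESeq2 (adjusted p = 1.56e-05) and in limma-voom with sample weights (adjusted p = 0.0215). Across the 17 alternatives the value lay between -1.65 and -1.37 and passed in 3, with the highest adjusted p, 0.225, without WT HFD replicate 1. No interaction of the 10 genes passed in edgeR, beside 0.118% of all genes called higher and 0.143% lower. At an unadjusted p under 0.05 there were 3 of 10 (Trib3, Atf4 and Herpud1) and 13.1% of all genes. DESeq2 called 2 of the 10 (Trib3 and Atf4) and 6.89% of all genes, and limma-voom 1 of the 10 (Trib3) and 4.33%.

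Atf4 (chr15:80255184-80257545), the transcription factor of the branch, was at 140, 129 and 114 CPM in the WT NCD libraries, against 92.5, 86.8 and 97.4 CPM for MKO NCD. All MKO NCD libraries were below all WT NCD libraries. MKO against WT gave -0.47 on the log2 scale (SE 0.12) and missed the threshold (adjusted p = 0.0594). It passed in 3 of 18 alternatives, which were DESeq2 (adjusted p = 0.00153), RLE size factors and the fit without MKO HFD replicate 3 (0.0413). On HFD, WT libraries had 115, 121 and 116 CPM, against 133, 145 and 106 CPM for MKO, which overlapped (0.12, SE 0.12, adjusted p = 0.782). HFD against NCD gave -0.12 in WT (SE 0.12) and 0.47 in MKO (SE 0.12, adjusted p = 0.0861), with an interaction of 0.59 (SE 0.17, adjusted p = 0.148). The difference in MKO passed in 2 of 18 alternatives, DESeq2 (adjusted p = 0.00801) and limma-voom (0.0254). The interaction passed in 1 of 17, DESeq2 (adjusted p = 0.0167).

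Chac1 (chr2:119351242-119354326), which encodes an enzyme that breaks down glutathione and is a target of the ATF4 branch, was the least abundant. WT libraries had 3.44, 6.67 and 4.29 CPM on NCD, against 3.55, 3.73 and 4.27 CPM on HFD. In MKO it read 5.29, 10.5 and 5.13 CPM on NCD and 2.79, 3.30 and 4.50 CPM on HFD. The WT ranges overlapped and the MKO ranges did not, and the log2 fold changes of -0.32 (SE 0.41) and -0.98 (SE 0.41, adjusted p = 0.261) did not pass.

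In MKO, HFD against NCD called none of the 10 genes, beside 1.04% of all genes higher and 0.966% lower. At an unadjusted p under 0.05 there were 7 of 10 and 17% of all genes. DESeq2 called 5 of the 10 (Ddit3, Atf4, Xbp1, Trib3 and Asns) and 9.7% of all genes. With limma-voom it was 4 of the 10 (Hspa5, Ddit3, Atf4 and Trib3) and 6.8%. The median log2 fold change was -0.09 over the 10 genes and 0.06 over all genes. Both diet comparisons use the same fit, but no shared libraries.

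**Figure D3:**
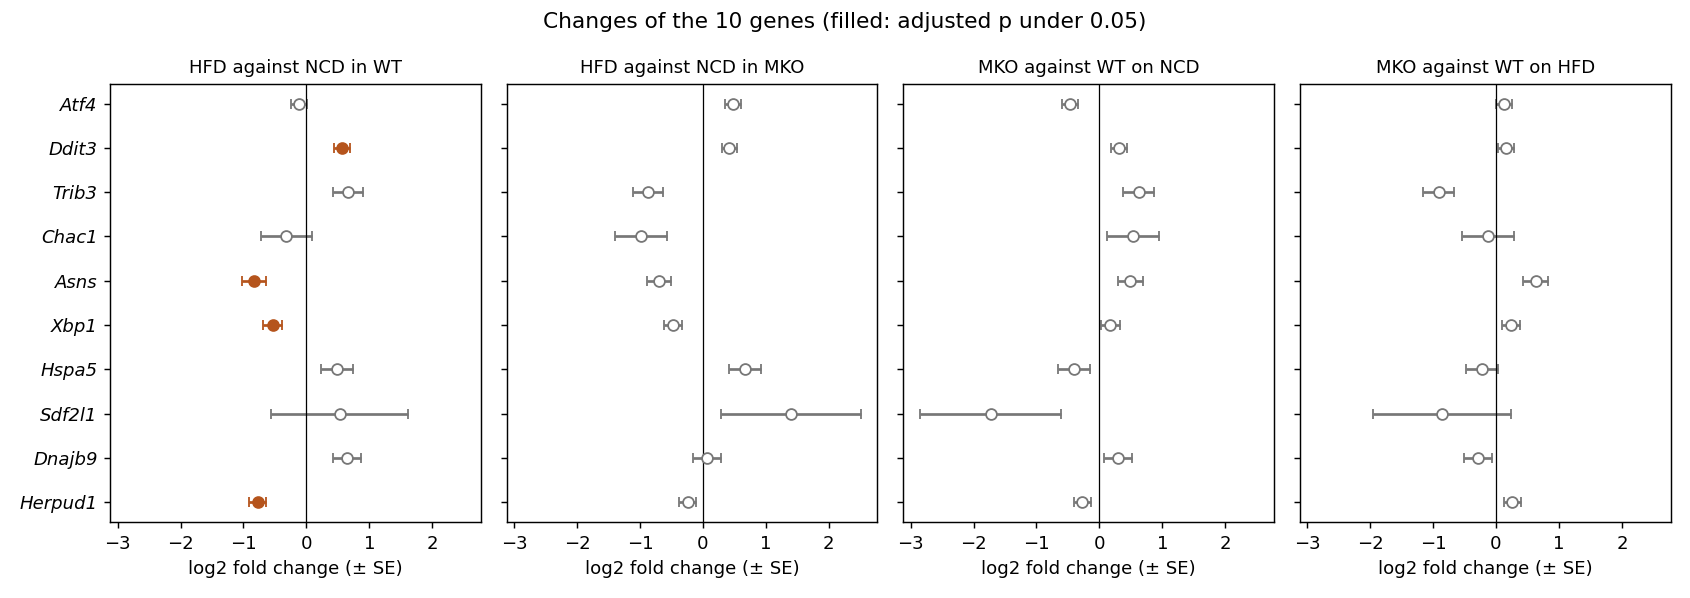
Log2 fold change with its SE for each of the 10 genes in the diet comparison of each genotype and the genotype comparison on each diet. Filled points passed an adjusted p under 0.05. The 4 filled points are Ddit3, Asns, Xbp1 and Herpud1 for HFD against NCD in WT.

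The loss of Bnip3 in macrophages changed no gene of the 10 past the threshold on either diet, and Asns was higher in MKO when the diets were averaged. On NCD, 2.22% of all genes were called higher and 2.13% lower in MKO. At an unadjusted p under 0.05 there were 4 of the 10 genes and 19.7% of all genes. DESeq2 called Atf4 and Trib3 and 10.9% of all genes, and limma-voom called none of the 10 and 7.13% of all genes. On HFD the shares over all genes were 1.34% higher and 2.24% lower. Of the 10 genes, Trib3 and Asns had an unadjusted p under 0.05, as did 15.1% of all genes. DESeq2 called the same pair and 12.1% of all genes, and limma-voom 3 of the 10 and 18.1%. The diet comparison in WT and the genotype comparison on NCD share the WT NCD libraries.

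Averaged over diets, Asns was 1.47-fold higher in MKO, a log2 fold change of 0.56 (SE 0.14, adjusted p = 0.0341). This was 1 of the 10 genes, beside 4.04% of all genes called higher and 3.22% lower. At an unadjusted p under 0.05 there were 2 of the 10 and 22.6% of all genes. DESeq2 called 1 of the 10 (Asns) and 15.8% of all genes, and limma-voom 3 of the 10 (Ddit3, Asns and Sdf2l1) and 16.9%. The single diets gave 0.49 on NCD (SE 0.19, adjusted p = 0.185) and 0.63 on HFD (SE 0.19, adjusted p = 0.119). On HFD all MKO libraries were above all WT libraries, while on NCD MKO replicate 1, at 75.2 CPM, lay below WT replicate 2, at 76.1 CPM. The averaged call held in 9 of 17 alternatives, with the highest adjusted p, 0.0952, without MKO HFD replicate 2. It was also lost without WT NCD replicate 1 or 3, MKO NCD replicate 3, WT HFD replicate 2 or 3, or MKO HFD replicate 1. The adipocyte marker sum was 19094 to 24319 CPM in WT HFD and 25716 to 29786 CPM in MKO HFD, and its part in the Asns difference was not tested.

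Trib3 on HFD was lower in MKO by -0.91 on the log2 scale (SE 0.25, adjusted p = 0.0720), and no MKO HFD library reached a WT HFD library. It passed in 4 of 18 alternatives, among them the fit without MKO NCD replicate 2 (adjusted p = 0.0154). In the same groups 9 of 10 macrophage markers and 5 of 8 fibroblast markers were called lower in MKO, and 5 of 10 adipocyte markers higher. The summed fibroblast level was 5262 to 7247 CPM in WT HFD and 2441 to 3381 CPM in MKO HFD. The part of cell content in the Trib3 difference was not tested.

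In the authors' deposited table of the genotype comparisons, Atf4 has a signed fold change of -1.45 on NCD (adjusted p = 0.00166) and is the only 1 of the 10 genes under 0.05, beside 7.74% of 22493 genes with an adjusted p. On HFD the authors' deposited table gives Asns 1.55 (adjusted p = 0.00446), Trib3 -1.88 (adjusted p = 2.98e-04) and Sdf2l1 -1.82 (adjusted p = 0.0280), which makes 3 of 10 beside 17.4% of 19651 genes.

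A further 103 genes of the pathway, in 5 lists, were all tested. For HFD against NCD in WT, 17 (16.5%) of them were called higher and 11 (10.7%) lower, where 9.5% and 8.28% of all tested genes were called. Their median log2 fold change was 0.13. In the list of ER chaperones and folding enzymes 4 of 23 rose and 2 fell. Dnajc10, an ER disulfide reductase, had the smallest p of the list and fell by 1.81 on the log2 scale (SE 0.17, adjusted p = 1.84e-04). Uggt1, a folding sensor of glycoproteins, was the other that fell, by 0.67 (SE 0.19, adjusted p = 0.0357), and is named after its value was seen. Calr, a lectin chaperone, rose from 446 ± 114 to 725 ± 55.3 CPM (SD, n = 3; log2 fold change 0.70, SE 0.17, adjusted p = 0.0168), and Dnajb11, a BiP cochaperone, from 59.2 ± 8.96 to 93.2 ± 2.36 CPM (0.66, SE 0.11, adjusted p = 0.00223). P4hb, a protein disulfide isomerase, rose by 0.46 (adjusted p = 0.0228). Dnajc10 and Dnajb11 were called in 18 of 18 alternatives, Calr in 14 and P4hb in 12.

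Of 14 genes of ER-associated degradation, 2 rose and 1 fell in WT. Edem1, which marks misfolded glycoproteins, rose by 0.72 (SE 0.16, adjusted p = 0.0125), and Sel1l, a subunit of the ubiquitin ligase complex, by 0.61 (SE 0.15, adjusted p = 0.0185). Derl1, a channel protein of the same route, fell by 0.60 on the log2 scale (SE 0.13, adjusted p = 0.0111), as Herpud1 did. Among 19 genes of ER import and export 3 rose, with Sec24d, a COPII coat protein, at 0.82 (adjusted p = 0.00456), and Ssr4, a translocon-associated protein, was the 1 that fell. Sec24d was called in 18 of 18 alternatives, Derl1 in 17, Edem1 in 16, Ssr4 in 15 and Sel1l in 14.

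Of 13 stress sensors and eIF2alpha regulators 1 rose and 1 fell. Eif2s1, which encodes eIF2alpha itself, rose by 0.66 (SE 0.11, adjusted p = 0.00233). Ern1, the gene of IRE1, fell by 0.99 on the log2 scale (SE 0.30, adjusted p = 0.0424), a call that held in 8 of 18 alternatives, with an adjusted p of 0.150 without WT HFD replicate 1. The 34 other ATF4 targets split into 7 that rose and 6 that fell. Wars, a tryptophanyl-tRNA synthetase, had the smallest p of the list and fell by 2.47 on the log2 scale (SE 0.25, adjusted p = 2.27e-04). Vldlr, a lipoprotein receptor, rose by 1.54 (SE 0.19, adjusted p = 5.77e-04), and Nars, an asparaginyl-tRNA synthetase, by 0.65 (SE 0.12, adjusted p = 0.00326). Pck2, the mitochondrial form of PEP carboxykinase, fell by 0.91 on the log2 scale (adjusted p = 0.00238). Wars, Vldlr, Nars, Pck2 and Eif2s1 were called in 18 of 18 alternatives.

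In MKO, HFD raised 3 (2.91%) and lowered 1 (0.971%) of the 103 genes, where 1.04% and 0.966% of all genes were called. Atf5 (0.69, adjusted p = 0.0289), a relative of Atf4, Cth (0.80, adjusted p = 0.0272), an enzyme of cysteine synthesis, and Dnajb11 (0.54, adjusted p = 0.0327) rose, and Pck2 fell by 0.95 on the log2 scale (adjusted p = 0.0146). In the 18 alternatives Pck2 was called in 14, Atf5 and Cth in 10 each and Dnajb11 in 7, with adjusted p of up to 0.115 for Cth and Atf5 without MKO HFD replicate 2 and 0.109 for Dnajb11 without MKO HFD replicate 1.

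**Figure D4:**
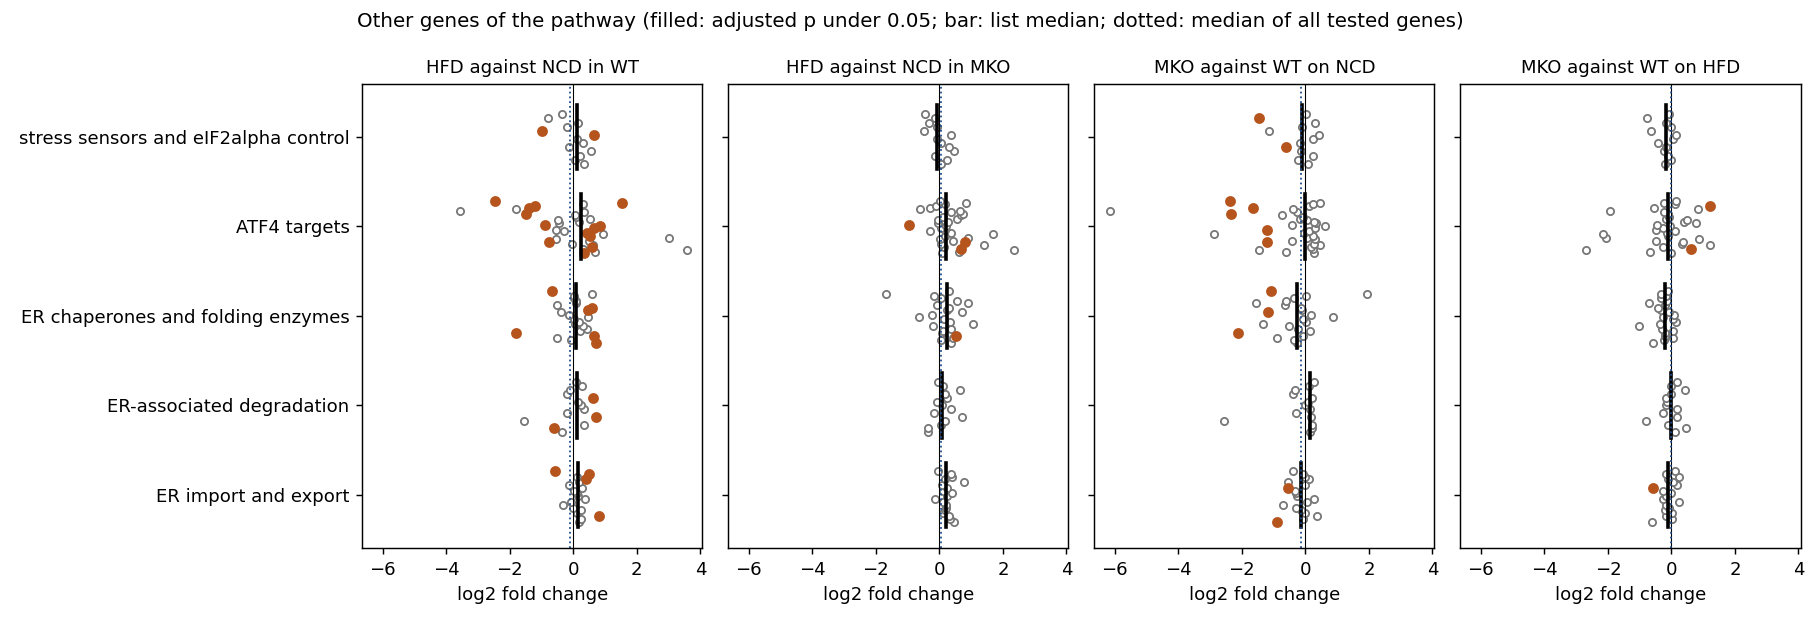
Log2 fold change of the 103 other pathway genes by list, for 4 comparisons. Each point is a gene, filled where the adjusted p was under 0.05, black bars are list medians and dotted lines the median of all tested genes. Calls are most frequent for HFD against NCD in WT, 17 higher and 11 lower, and the 12 calls of MKO against WT on NCD are all lower.

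On NCD, 12 (11.7%) of the 103 genes were called lower in MKO than in WT and none higher. Of all genes 2.13% were called lower and 2.22% higher. Among the 12 were Dnajc10 at -2.13 (SE 0.17, adjusted p = 3.00e-04), Wars at -2.37 (SE 0.25, adjusted p = 0.00123), and Manf, a secreted ER stress protein, at -1.19 (SE 0.19, adjusted p = 0.00894). Shmt2, of mitochondrial one-carbon metabolism, was at -2.33 (adjusted p = 0.00628). Ppp1r15a, the gene of the eIF2alpha phosphatase subunit GADD34, was at -1.45 (adjusted p = 0.0269), and Eif2ak3, the gene of PERK, at -0.59 (adjusted p = 0.0203). In the 18 alternatives Dnajc10 was called in 18, Wars, Manf and Shmt2 in 17, Eif2ak3 in 14 and Ppp1r15a in 13. Without MKO NCD replicate 3 the adjusted p of Ppp1r15a was 0.0826, and without WT NCD replicate 1 that of Eif2ak3 was 0.0714. In the fit of only the compared libraries it was 0.0257 for Dnajc10, 0.0509 for Wars, 0.0846 for Manf, 0.114 for Shmt2, 0.161 for Ppp1r15a and 0.173 for Eif2ak3.

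Dnajc10, Wars and Shmt2 were high in the WT NCD libraries. Dnajc10 was at 233, 239 and 352 CPM there and at 57.6 to 81.7 CPM in the other 9 libraries. Wars was at 423, 262 and 187 CPM there and at 49.2 to 65.2 CPM in the other 9. Shmt2 was at 101, 62.9 and 46.9 CPM there and at 6.82 to 25.8 CPM in the other 9. These are the libraries with epididymis transcripts. The part of those transcripts in the 12 differences on NCD, the diet comparison in WT, the interactions and the averages over diets was not tested. Dnajc10, Wars and Cth were also the 3 pathway genes whose interaction passed, at 1.91, 2.50 and 1.56 on the log2 scale (adjusted p = 0.0180, 0.0256 and 0.0256). Dnajc10 passed in 13 of 17 alternatives, and Wars and Cth in 10 each, with adjusted p of up to 0.0753 for Dnajc10 without WT HFD replicate 1 and 0.0877 for Wars and Cth without WT HFD replicate 2.

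On HFD, 2 (1.94%) of the 103 genes were called higher in MKO than in WT and 1 (0.971%) lower, where 1.34% and 2.24% of all genes were called. Atf5 rose by 0.61 (SE 0.13, adjusted p = 0.0333) and Stc2, a secreted glycoprotein induced by ER stress, by 1.20 (SE 0.27, adjusted p = 0.0371). Spcs3, a signal peptidase subunit, fell by 0.58 on the log2 scale (SE 0.12, adjusted p = 0.0282). In the 18 alternatives Spcs3 was called in 13, Atf5 in 12 and Stc2 in 10. Without WT HFD replicate 2 the adjusted p was 0.172 for Atf5 and 0.186 for Stc2, and without MKO HFD replicate 2 it was 0.143 for Spcs3. Averaged over diets, 3 (2.91%) were higher and 16 (15.5%) lower, where 4.04% and 3.22% of all genes were called. Spcs3 was among the 16 at -0.57 (adjusted p = 0.00408), with -0.56 on NCD and -0.58 on HFD. Wars was also among them, with -2.37 on NCD and 0.13 on HFD. The average includes the WT NCD libraries with epididymis transcripts, so a call in it is not by itself a difference seen on both diets.

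The genes whose level followed Hspa5 most closely over the 12 libraries, among 9626 named genes with a mean of at least 10 CPM, were Npc2 (Pearson r = 0.92), Cep192 (0.92), Pdia3 (0.91), Cep83 (0.91) and Calr (0.89). Those closest to Asns were Aco1 (r = 0.98), Nrg4 (0.97), Mocs1 (0.97), Lrig1 (0.97) and Aldh6a1 (0.97). Without MKO NCD replicate 2 these values were 0.89 to 0.94 for Hspa5 and 0.96 to 0.97 for Asns. The 12 libraries fall into 4 groups and share their differences in cell content, so these values describe a shared pattern over groups and carry no test.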

How the data were processed

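RNA was extracted with Trizol and a stranded mRNA kit was used for the libraries, per the labels' protocols. The submitters' processing notes name the genome mm10 and the tools HISAT2 2.1.0, StringTie 1.3.4d, bcl2fastq 2.20.0, DESeq2 and Trimmomatic. Per the file headers, the deposited table holds raw read counts and TPM per gene and library. It also holds the authors' signed linear fold change, entered here as a score, and the authors' adjusted p-value for the genotype comparisons on each diet. Another 24 columns of per-library values were not used.

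Counts were tested with edgeR 4.0.16 in R 4.3.3, with TMM size factors, the filterByExpr filter by group (minimum count 10), robust quasi-likelihood estimation and 1 fit of all 12 libraries. The SE is the absolute log2 fold change over the square root of F, and nominal 95% intervals are 1.96 SE either way. This normal multiplier ignores the limited degrees of freedom of the F test, so the intervals are narrower than 95% intervals would be. CPM uses TMM library sizes. Log2 CPM for correlations has a prior count of 2. Intervals and floors cover counting error only where they come from counts. The fit was also run on simulated counts, with the same spread for all genes and no differences in tissue content. Detection was required there only for planted changes larger than any called change of the 10 genes. Smaller planted changes, still larger than those called among the 10 genes, were detected only in part. Changes of the size called among the 10 genes were not planted, so how well they are detected is not shown. Loci and promoters are from RefSeq, GRCm38.p6, and all 10 genes matched. Figures used Python 3.11.15 and matplotlib 3.10.9.

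All 10 genes are named in each comparison, and of each pathway list a subset of the 4 called genes with the smallest p. The genes, lists and tests were chosen with earlier results of these data known. Alternatives were RLE size factors, no count filter, DESeq2 1.42.0, limma-voom (limma 3.58.1) with sample weights, a replicate block, fits of only the compared libraries and fits without 1 library. No 2 libraries had identical counts.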

Additional observations from a re-analysis of the deposited data

Results flagged for a closer look

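The diet effect differed between genotypes, by the interaction test in edgeR, for 3 of the pathway genes named. The difference, MKO minus WT on the log2 scale, was 2.50 for Wars (adjusted p = 0.0256), 1.91 for Dnajc10 (adjusted p = 0.0180) and 1.56 for Cth (adjusted p = 0.0256). All 3 genes were higher in each WT NCD library than in any of the other 9. The WT NCD libraries are those with epididymis transcripts, whose part in the 3 interactions was not tested. In MKO the log2 fold change between the diets was 0.03 for Wars, 0.10 for Dnajc10 and 0.80 for Cth.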

How the results depend on the processing

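Of the 10 genes, the number called changed with the tool. For HFD against NCD in WT, 4 were called as reported and 6 each in DESeq2, limma-voom and the fit of only the compared libraries. The last called 27.2% of all genes. DESeq2 called 5 for HFD against NCD in MKO, 2 for MKO against WT on NCD, 2 on HFD and 2 for the interaction, and limma-voom with sample weights called 4 in MKO, 3 on HFD, 1 for the interaction and 3 averaged over diets. RLE size factors called 1 on NCD, beside 3.66% of all genes. The fit of only the compared libraries called 2 on HFD, beside 12.7%. The replicate numbers did not pair the libraries (3 of 18 same-number correlations over 0.1, median 0.03). The replicate block called 0 averaged over diets, beside 4.11% of all genes. Without 1 library the number called was 2 to 6 for HFD against NCD in WT, 0 to 1 in MKO, 0 to 1 for MKO against WT on NCD, 0 to 1 on HFD, 0 to 1 for the interaction and 0 to 2 averaged over diets.

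Small values that did not pass the test reversed sign. In limma-voom these were Xbp1 (-0.0455) and Dnajb9 (-0.0027) on NCD, and Chac1 (-0.0553) and Dnajb9 (-0.19) averaged over diets, where Dnajb9 was also -0.0368 with RLE size factors and -0.0368 in DESeq2. Fits without 1 library gave -0.0903 to 0.351 for Dnajb9 in HFD against NCD in MKO, -0.0168 to 0.317 for Xbp1 in MKO against WT on NCD, -0.337 to 0.0196 for Chac1 in MKO against WT on HFD, -0.184 to 0.464 for Hspa5, -0.0751 to 0.259 for Xbp1 and -0.054 to 0.314 for Asns in the interaction, -0.000934 to 0.363 for Chac1, -0.0555 to 0.0523 for Herpud1 and -0.137 to 0.0831 for Dnajb9 in the average over diets.

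Over all genes, the number called for HFD against NCD in WT was 3610, and 1884 to 6789 in the alternatives (6789 without MKO NCD replicate 2). It was 408 (41 to 1731) in MKO, 882 (53 to 2212) on NCD, 725 (7 to 3676) on HFD, 53 (2 to 1123) for the interaction and 1473 (614 to 3432) averaged over diets. RLE size factors moved the share of higher calls on NCD from 51.0% to 40.7%. The cause of these changes was not tested. With 3 libraries per group and SEs of 0.12 to 1.12 in the comparisons of 2 groups, changes of Sdf2l1 and Chac1 smaller than their intervals were not detectable.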
